A study of Mus musculus with 16 samples.

Results

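The tibialis anterior muscle of WT mice was compared between 24 and 6 months of age, using 4 libraries at each age, which are 8 of the 16 libraries of the study. They were chosen by their labels alone (WT, 6 or 24 months), and the other 8 libraries are UBR4 mKO muscles of the same ages. The WT mice are C57BL6/J, labelled male, and carry homozygous floxed Ubr4 alleles without the ACTA1-Cre transgene, which in the UBR4 mKO mice is driven by a skeletal muscle promoter. They received tamoxifen at 3 months of age like the UBR4 mKO mice, so both ages share the floxed alleles and the tamoxifen. The labels call the libraries of a group biological replicates, and the study describes its RNA samples as individual muscles of independent mice, kept on standard chow. It gives a smaller number of replicates than the 4 libraries per group that the table holds.

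Skeletal muscle fibers of the mouse tibialis anterior are almost all fast fibers, which hold the myosin heavy chains IIb, IIx or IIa, encoded by Myh4, Myh1 and Myh2. When a fiber loses its nerve it turns on a known program: it makes acetylcholine receptor subunits and the kinase MuSK outside the synapse, together with the muscle transcription factor myogenin and the cell cycle and stress gene Gadd45a. Aging muscle is known for loss of motor nerve contact, fiber atrophy, immune cell infiltration and reduced mitochondrial content, and each of these was described here through a list of genes.

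Expression is given as TPM, which corrects for transcript length and scales every library to the same sum, so the number of reads behind a value is unknown. Transcripts of the mitochondrial genome took up 55.6, 52.6, 57.3 and 59.7% of TPM in the 6-month and 49.5, 51.5, 51.7 and 47.8% in the 24-month libraries, which did not overlap. The mean share was 56.3 ± 3.01% (SD, n = 4) at 6 months and 50.1 ± 1.85% (SD, n = 4) at 24 months (exact two-sided permutation p = 0.0286, the smallest that 4 against 4 allows). A lower mitochondrial share raises every nuclear gene in TPM, by 0.19 on the log2 scale for the ratio of the mean nuclear shares. Each gene was therefore tested on the TPM as deposited and on TPM rescaled to 1000000 without the mitochondrial genes, and values are rescaled TPM unless stated.

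Sex-linked RNA did not follow the label male at 6 months, and it separated the ages. Xist, the RNA that silences one X chromosome in female cells (chromosome X, 103460366 to 103483254, GRCm38), was at 6.55, 27.4, 18.2 and 7.76 at 6 months and 0.0304, 0.0521, 0.0218 and 0.0454 at 24 months, a non-overlapping difference (exact two-sided permutation p = 0.0286). The mean level of the Y-linked genes Ddx3y, Uty, Kdm5d and Eif2s3y was 70.2, 28.7, 12.6 and 34.0% of the 24-month WT mean in the 6-month libraries and 108, 97.6, 105 and 88.8% in the 24-month libraries (exact two-sided permutation p = 0.0286). All 4 of the 6-month libraries thus held both Xist and reduced Y-linked RNA, whereas the 24-month libraries held almost no Xist. Age and this sex-linked composition cannot be told apart in WT. The counts that lead the lists are therefore also given with the Y-linked level as a covariate and with 6-month replicates 1 and 4 alone, the libraries with the least Xist, both chosen after seeing the data.

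**Figure D1:**
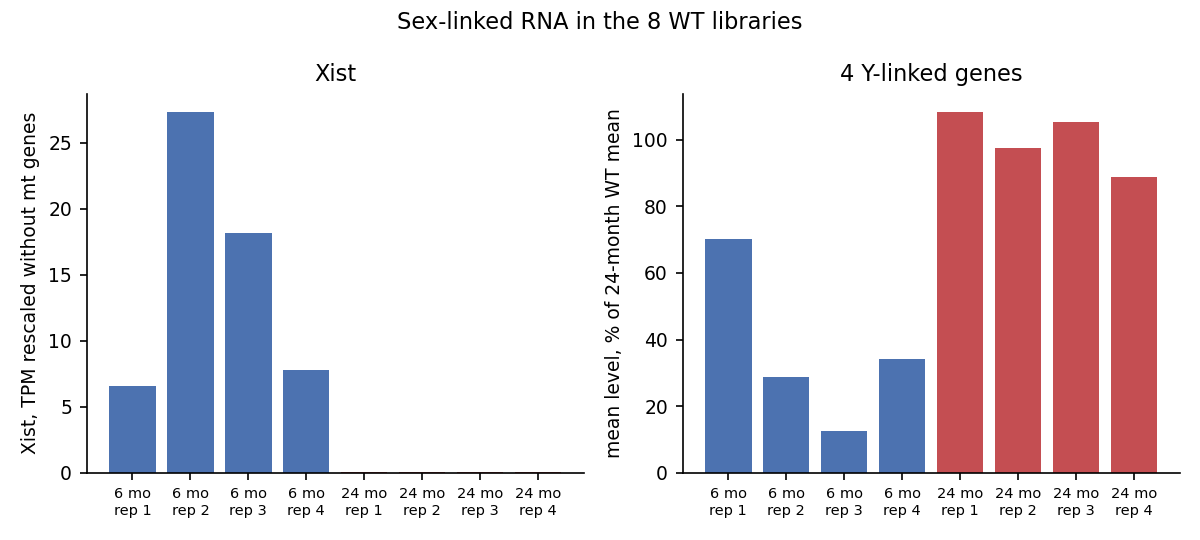
Xist in rescaled TPM (left) and the mean level of 4 Y-linked genes in % of the 24-month WT mean (right), 1 bar per WT library, 6 months in blue and 24 months in red. Xist lies between 6.55 and 27.4 at 6 months and at or under 0.0521 at 24 months, and the Y-linked level between 12.6 and 70.2% at 6 months and between 88.8 and 108% at 24 months.

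The 17 markers of skeletal muscle were measured in every library, as the tissue label has it, and summed to between 269709 and 301314 TPM in the WT libraries. Log2 values of libraries of the same age correlated at 0.982 to 0.991 across genes, and 0 pairs of libraries were identical. A limma fit with 1 coefficient for each of the 4 groups was run on log2(TPM + 0.1) for genes averaging at least 1 TPM over the 16 libraries, and genes with a Benjamini-Hochberg adjusted p under 0.05 were called. Fold changes on this scale understate the change of genes with low TPM. On rescaled TPM, 678 of 11901 genes tested (5.70%) were called higher and 447 (3.76%) lower at 24 months, and 20.6% of the genes had 4 and 4 libraries that did not overlap. On TPM as deposited, 2555 of 10628 genes (24.0%) were called higher and 114 (1.07%) lower. The median gene rose by 0.08 on the rescaled and 0.26 on the deposited log2 scale, and changed by -0.0015 after median-of-ratios scaling, which called 539 genes higher and 590 lower. A total of 721 genes were called in the same direction on both scales, 611 higher and 110 lower. With the Y-linked covariate, 204 genes were called higher and 91 lower on rescaled TPM, and with 6-month replicates 1 and 4 alone 374 and 164. Leaving out single libraries changed the 1125 rescaled calls by over 1.5 times for 24-month replicates 1 (697 calls) and 4 (686) and 6-month replicates 3 (664) and 4 (636). It changed the 2669 deposited calls likewise for 24-month replicates 1 (1342) and 4 (1118) and 6-month replicates 2 (4973), 3 (1320) and 4 (974).

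The denervation genes that passed the test were all higher at 24 months. Of 29 listed genes tested, 14 were called higher and 0 lower on rescaled TPM, with a median log2 fold change of 0.71 against 0.08 over all genes, of which 5.70% were called higher. On TPM as deposited, 19 of 26 were called higher (median 1.09), beside 24.0% of all genes. The count was 10 with the Y-linked covariate, 11 with 6-month replicates 1 and 4 alone, and 12 to 15 when 1 library was left out, with 0 called lower each time.

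Myogenin (Myog, chromosome 1, 134289989 to 134292548), the transcription factor that turns on receptor genes in fibers without nerve input, was at 4.69, 6.03, 9.14 and 3.91 at 6 months and 27.5, 13.7, 20.01 and 18.8 at 24 months. All 4 old libraries were above all 4 young ones, and replicate 1 was the highest at 24 months (log2 fold change 1.76, SE 0.29, limma adjusted p = 0.00146). Runx1, a transcription factor known to be induced by denervation, was at 0.403, 0.561, 0.434 and 0.569 at 6 months and 3.15, 3.05, 2.98 and 3.37 at 24 months, a 6.38-fold higher mean with little spread within either age (log2 fold change 2.46, SE 0.22, limma adjusted p = 1.14e-05). Gadd45a, which drives a large part of the denervation program, was at 30.6, 38.4, 34.1 and 32.1 at 6 months and 101, 71.8, 86.7 and 111 at 24 months (log2 fold change 1.44, SE 0.24, limma adjusted p = 0.00149). Ankrd1, a titin-binding stress protein of the sarcomere, rose 3.98-fold from 34.1, 41.5, 28.97 and 25.8 to 171, 109, 137 and 103 (log2 fold change 1.98, SE 0.24, limma adjusted p = 1.10e-04). The AMP deaminase gene Ampd3 and the activin antagonist gene Fst rose as well, by 1.77 and 1.55 on the log2 scale (limma adjusted p = 4.09e-04 and 1.61e-04).

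Larger changes were seen in genes with low TPM at 6 months. Rrad, a small GTPase that inhibits calcium channels, was at 2.91, 2.77, 3.89 and 1.26 at 6 months and 55.4, 35.7, 53.3 and 71.3 at 24 months (19.95-fold, log2 fold change 4.33, SE 0.40, limma adjusted p = 1.45e-05). Gdf5, a BMP ligand known to protect denervated muscle, was at 0.121, 0.299, 0.612 and 0.554 at 6 months and 7.05, 4.06, 5.52 and 6.57 at 24 months (log2 fold change 3.68, SE 0.36, limma adjusted p = 2.00e-05). Both myoblast fusion genes rose: Mymx (listed as Gm7325) was listed at 0 in 3 of the 6-month libraries and at 0.213 in replicate 3, against 2.57, 2.27, 2.38 and 3.51 at 24 months (limma adjusted p = 1.07e-04). Mymk (listed as Tmem8c), the other fusion protein, was at 0.124, 0.328, 0.217 and 0.131 at 6 months and 0.782, 1.05, 0.906 and 2.93 at 24 months, with replicate 4 the highest at 24 months (limma adjusted p = 0.0068, and 0.12 with the Y-linked covariate). The embryonic receptor subunit Chrng was under the TPM filter and not tested. It was listed at 0, 0.0238, 0 and 0 at 6 months and 0.917, 0.538, 0.658 and 0.699 at 24 months. Among members that did not pass, the receptor subunit Chrnd had a log2 fold change of 0.63 (adjusted p = 0.102), the adhesion molecule Ncam1 0.71 (adjusted p = 0.0739) and cardiac actin Actc1 0.11 (adjusted p = 0.932).

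At the neuromuscular junction, 4 of 20 genes tested were called higher and 0 lower, with a median log2 fold change of 0.07, close to that of all genes, of which 5.70% were called higher and 3.76% lower. As deposited, 5 of 18 were called higher, beside 24.0%. With the Y-linked covariate 2 were called and with 6-month replicates 1 and 4 alone 4. The 4 were Musk, the kinase that clusters receptors, Colq, the collagen tail of acetylcholinesterase, and the receptor subunits Chrna1 and Chrnb1. Musk was at 2.67, 3.33, 2.402 and 2.15 at 6 months and 7.46, 12.5, 6.37 and 9.25 at 24 months (log2 fold change 1.69, SE 0.30, limma adjusted p = 0.00254). Colq was at 3.63, 4.11, 4.08 and 3.49 at 6 months and 11.8, 5.23, 12.9 and 9.82 at 24 months (log2 fold change 1.28, SE 0.25, limma adjusted p = 0.00468). In Colq, 24-month replicate 2 lay closest to the young libraries. Chrna1 was at 6.79, 10.1, 10.9 and 10.2 at 6 months and 22.2, 13.6, 17.7 and 25.8 at 24 months (log2 fold change 1.04, SE 0.22, limma adjusted p = 0.00776). Chrnb1 was at 34.1, 41.3, 32.9 and 27.9 at 6 months and 68.5, 52.8, 59.4 and 67.2 at 24 months (log2 fold change 0.87, SE 0.11, limma adjusted p = 1.48e-04). None of the 4 overlapped between ages, and with the Y-linked covariate the calls of Musk (adjusted p = 0.0768) and Chrna1 (adjusted p = 0.0594) did not pass. Chrne, the subunit of the adult synapse, had a log2 fold change of -0.04 (adjusted p = 0.927).

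The promoters of Chrna1, Musk and Myog are shown because these genes rose together and each is known to be controlled through E-boxes, the sites of myogenic basic helix-loop-helix factors. Each line gives the 250 bases before the RefSeq start site (GRCm38.p6), 5′ to 3′ on the strand of the gene, with every match to CANNTG in capitals. CANNTG reads the same on both strands, and CAGCTG is one form of it.
Chrna1 (chr2:73580339-73580588, minus strand): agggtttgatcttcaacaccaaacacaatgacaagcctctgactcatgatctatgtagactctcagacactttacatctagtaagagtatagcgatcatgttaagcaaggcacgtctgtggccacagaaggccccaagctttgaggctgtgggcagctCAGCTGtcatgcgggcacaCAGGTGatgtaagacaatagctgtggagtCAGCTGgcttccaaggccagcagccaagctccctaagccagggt
Musk (chr4:58285712-58285961, plus strand): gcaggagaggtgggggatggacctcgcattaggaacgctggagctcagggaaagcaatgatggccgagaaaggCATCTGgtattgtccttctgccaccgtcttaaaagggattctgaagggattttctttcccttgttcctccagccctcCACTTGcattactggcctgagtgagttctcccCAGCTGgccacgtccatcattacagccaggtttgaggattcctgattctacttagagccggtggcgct
Myog (chr1:134289754-134290003, plus strand): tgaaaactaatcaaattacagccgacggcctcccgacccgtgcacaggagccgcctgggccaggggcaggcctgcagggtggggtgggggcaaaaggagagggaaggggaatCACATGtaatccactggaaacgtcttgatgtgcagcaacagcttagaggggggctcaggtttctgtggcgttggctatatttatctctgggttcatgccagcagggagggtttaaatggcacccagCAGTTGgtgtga
Chrna1 had 3 matches, of which those 92 and 44 bases before the start site read CAGCTG. Musk had 3, with CAGCTG 68 bases before the start site, and Myog had 2, at 138 and 12 bases. Of the 17 genes of the denervation and junction lists that were called higher, 10 had a promoter window, and 9 of these held CANNTG and 2 CAGCTG. Over all 27025 genes with a window, 69.3% held CANNTG and 14.7% CAGCTG. Of the 33 tested genes of both lists with a window, called or not, 27 (81.8%) held CANNTG and 7 (21.2%) CAGCTG. A match of letters is a description of the window and not a binding site.

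**Figure D2:**
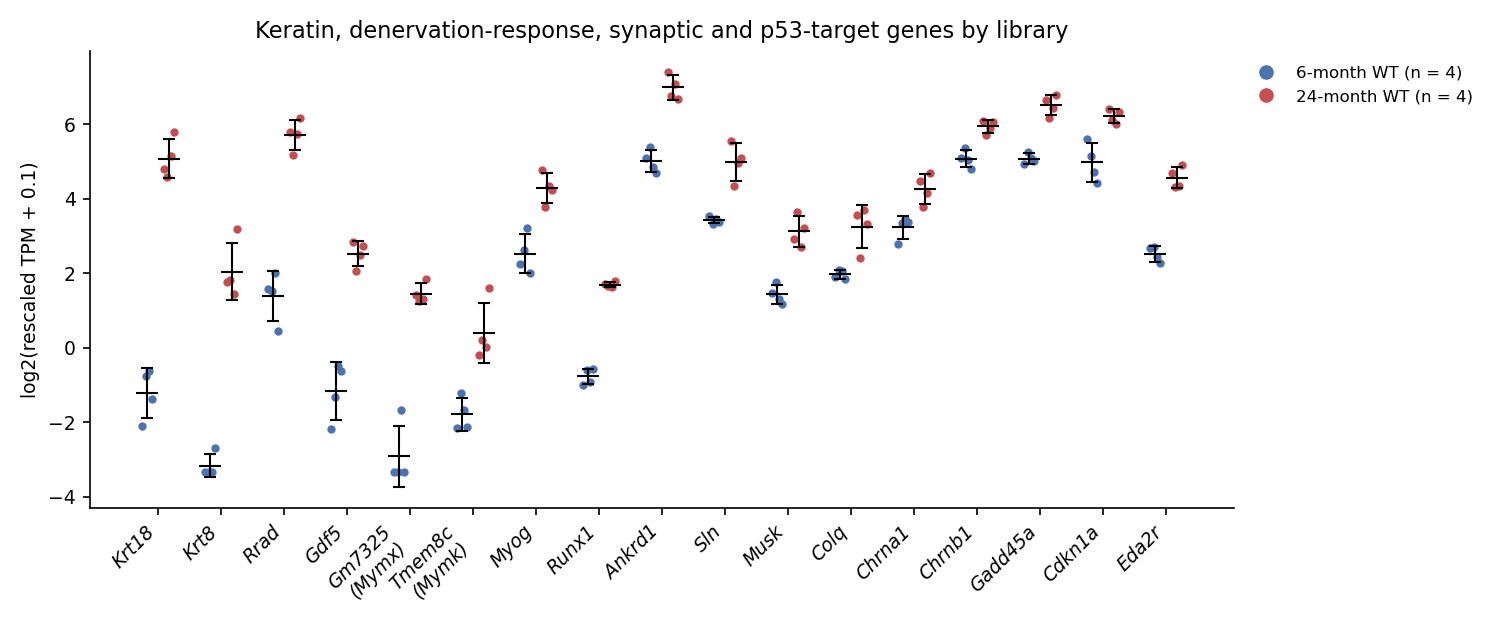
Log2(rescaled TPM + 0.1) of 17 genes in each WT library, 6 months in blue and 24 months in red, with the mean and SD of 4 libraries as black bars. In each gene the 4 old libraries lie above the 4 young ones, with the widest gaps in Krt18 and Krt8, and the 24-month spread is wide in Tmem8c (Mymk) and Colq.

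On the log2(TPM + 0.1) scale, Krt18 had the largest rise among the named genes called on both scales without overlap between ages, and by the ratio of means Krt8 had a larger one (333-fold), over a 6-month level near 0. Krt18 and its partner Krt8, keratins of simple epithelia that pair in filaments, both rose. Krt18 (chromosome 15, 102028180 to 102032027) was at 0.133, 0.495, 0.546 and 0.283 at 6 months and 27.5, 23.9, 35.6 and 55.03 at 24 months, a 97.4-fold higher mean (log2 fold change 6.29, SE 0.48, limma adjusted p = 3.97e-06). Krt8, which lies on the same chromosome, was listed at 0 in 3 of the 6-month libraries and at 0.0548 in replicate 4, against 3.27, 3.41, 2.6003 and 8.96 at 24 months (log2 fold change 5.21, SE 0.46, limma adjusted p = 1.14e-05). Krt19, another simple epithelial keratin, was under the filter, with 0.302, 0.587, 1.001 and 0.6402 at 6 months and 0.735, 0.201, 0.5798 and 0.439 at 24 months.

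Esr1, the estrogen receptor alpha, rose 16.6-fold from 5.51, 5.88, 6.11 and 4.74 to 94.98, 49.7, 126 and 98.1 (log2 fold change 3.96, SE 0.42, limma adjusted p = 4.13e-05). Ces2c, a carboxylesterase that hydrolyzes lipid esters, rose from 0.1896, 0.251, 0.333 and 0.352 to 14.8, 9.85, 13.3 and 27.6 (log2 fold change 5.35, SE 0.36, limma adjusted p = 1.22e-06), and its transcript is over 90% identical to Ces2b, so reads could be split between them. The chemokine Cxcl10 rose from 0.523, 0.3695, 0.612 and 0.80002 to 8.03, 8.65, 10.2 and 19.6 (log2 fold change 4.06, SE 0.49, limma adjusted p = 1.14e-04). Opn1mw, a cone opsin, was at 0.0598, 0.0634, 0.06996 and 0.317 at 6 months and 16.2, 3.58, 15.7 and 0.745 at 24 months, with a wide spread at 24 months (log2 fold change 4.68, SE 0.71, limma adjusted p = 7.50e-04). The potassium channel Kcnk5 rose 8.02-fold, Tmem132b 16.3-fold, the actin-binding gene Aif1l 10.6-fold and the copine Cpne2 7.43-fold in mean level (limma adjusted p = 8.57e-06, 1.85e-05, 1.14e-05 and 5.61e-05). The WNT antagonist Dkk3 rose 5.603-fold (log2 fold change 2.48, SE 0.36, limma adjusted p = 5.78e-04), whereas the antagonist Wif1 fell by 1.78 on the log2 scale (adjusted p = 0.0457), a call that was lost with the Y-linked covariate and without any 1 library other than 6-month replicate 2.

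Several genes of slow and oxidative fibers were lower and the gene of the fastest myosin was higher at 24 months. Of 18 slow-fiber genes tested, 7 were called lower and 2 higher (median log2 fold change -0.56), beside 3.76% and 5.70% of all genes, and on TPM as deposited 7 of 16 were lower and 2 higher, beside 1.07% and 24.0%. With the Y-linked covariate 3 were lower, and with 6-month replicates 1 and 4 alone 4, while 2 and 0 were higher. The median was -0.27 with the covariate (-0.03 as deposited) and -0.60 with replicates 1 and 4 alone. Csrp3, a LIM protein of the Z-disc, fell from 57.7, 104, 118 and 97.3 to 29.2, 24.1, 16.4 and 8.98 (log2 fold change -2.34, SE 0.37, limma adjusted p = 9.80e-04). Myl2, the slow myosin regulatory light chain, was at 8.96, 27.02, 27.1 and 23.7 at 6 months and 5.13, 4.403, 4.06 and 5.31 at 24 months (limma adjusted p = 0.0147), and this call was lost without 6-month replicate 3, with the Y-linked covariate (adjusted p = 0.32) and with 6-month replicates 1 and 4 alone (adjusted p = 0.147). Myoz2, calsarcin of slow fibers, fell from 44.5, 71.3, 134 and 96.8 to 24.9, 20.99, 21.2 and 18.7 (log2 fold change -1.91, SE 0.26, limma adjusted p = 3.25e-04), and Ankrd2, a stretch-responsive sarcomeric protein, fell by 1.52 on the log2 scale (adjusted p = 5.78e-04). Myl3, the slow essential light chain, fell by 1.45 (adjusted p = 0.00804). The slow myosin heavy chain Myh7 was low at both ages, between 0.786 and 2.82, with a log2 fold change of -0.81 (adjusted p = 0.431). The exceptions were sarcolipin (Sln), an inhibitor of the calcium pump, which rose 3.097-fold (log2 fold change 1.56, SE 0.32, limma adjusted p = 0.00585), and Fhl2 (log2 fold change 1.01, SE 0.20, limma adjusted p = 0.0047). Neither of them passed with 6-month replicates 1 and 4 alone (adjusted p = 0.0563 and 0.0504).

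Among the fast myosins, Myh4 (type IIb) was at 19414, 18372, 16005 and 15914 at 6 months and 24291, 22071, 27457 and 24810 at 24 months (log2 fold change 0.50, SE 0.09, limma adjusted p = 0.00348). Myh1 (type IIx) was at 5648, 7392, 7970 and 6565 at 6 months and 4495, 5296, 4763 and 4065 at 24 months (log2 fold change -0.56, SE 0.12, limma adjusted p = 0.00839). Myh2 (type IIa) was at 302, 642, 1596 and 863 at 6 months and 275, 202, 328 and 254 at 24 months, and the highest 24-month library lay above the lowest 6-month one (log2 fold change -1.46, SE 0.40, limma adjusted p = 0.0314). The Myh2 call was lost without 24-month replicate 1, 2 or 4 and without 6-month replicate 3 or 4, on both scales, and the deposited calls of Myh1 and Mb without 24-month replicate 1, 3 or 4 or 6-month replicate 2, 3 or 4. Myh4 was thus higher and Myh1 and Myh2 were lower, on both scales (deposited log2 fold changes 0.69, -0.37 and -1.27), and none of the 3 calls on rescaled TPM passed with the Y-linked covariate (adjusted p = 0.0803, 0.0867 and 0.401). Mybpc2, the fast myosin-binding protein C, rose by 0.56 (adjusted p = 0.00117) and kept its call in that fit (adjusted p = 0.0137). Over the fast-fiber list, 2 of 19 genes were called higher and 2 lower, beside 5.70% and 3.76% of all genes, with 1 and 0 in the covariate fit and 2 and 0 with 6-month replicates 1 and 4 alone. As deposited, 12 of the 19 were called higher and 2 lower, beside 24.0% and 1.07%. The rescaled lower count was 1 without 24-month replicate 1, 2 or 4 or 6-month replicate 3 or 4.

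By absolute TPM as deposited, the nuclear genes that gained most were Myh4, Pvalb (the calcium buffer parvalbumin), Tnnt3 (fast troponin T), Acta1 (skeletal actin), Mylpf (fast regulatory light chain) and Ckm (muscle creatine kinase), all called higher on that scale, with mean gains from 4656 (Myh4) to 2864 (Ckm) TPM. On rescaled TPM, Myh4 and Ckm were still called (Ckm adjusted p = 0.0368, lost without any 1 library other than 6-month replicate 1), and the log2 fold changes of Pvalb, Tnnt3, Acta1 and Mylpf were 0.22, 0.08, 0.01 and 0.19 (adjusted p = 0.24, 0.392, 0.939 and 0.26). The largest losses were those of Mb (myoglobin), Myh1, Fhl1, Tcap (telethonin), H19 and Myh2, from -1036 (Mb) to -235 (Myh2) TPM, of which Tcap was not called on that scale (adjusted p = 0.448). Mb fell from 11320, 13434, 14585 and 14501 to 9109, 10807, 9467 and 9384 (log2 fold change -0.47, SE 0.09, limma adjusted p = 0.00346), a call that did not pass with the Y-linked covariate (adjusted p = 0.0955) or with 6-month replicates 1 and 4 alone (adjusted p = 0.0547). Fhl1, a LIM protein of the sarcomere, fell from 1271, 2056, 2383 and 1753 to 745, 726, 684 and 636 (log2 fold change -1.38, SE 0.19, limma adjusted p = 3.29e-04). The imprinted noncoding RNA H19 fell from 572, 967, 1258 and 720 to 238, 249, 184 and 263 (log2 fold change -1.86, SE 0.19, limma adjusted p = 3.28e-05), and Rian, an imprinted noncoding RNA of chromosome 12, from 8.97, 13.2, 11.01 and 6.57 to 1.72, 1.46, 1.95 and 1.905 (log2 fold change -2.40, SE 0.23, limma adjusted p = 2.00e-05). Neither RNA overlapped between ages.

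**Figure D3:**
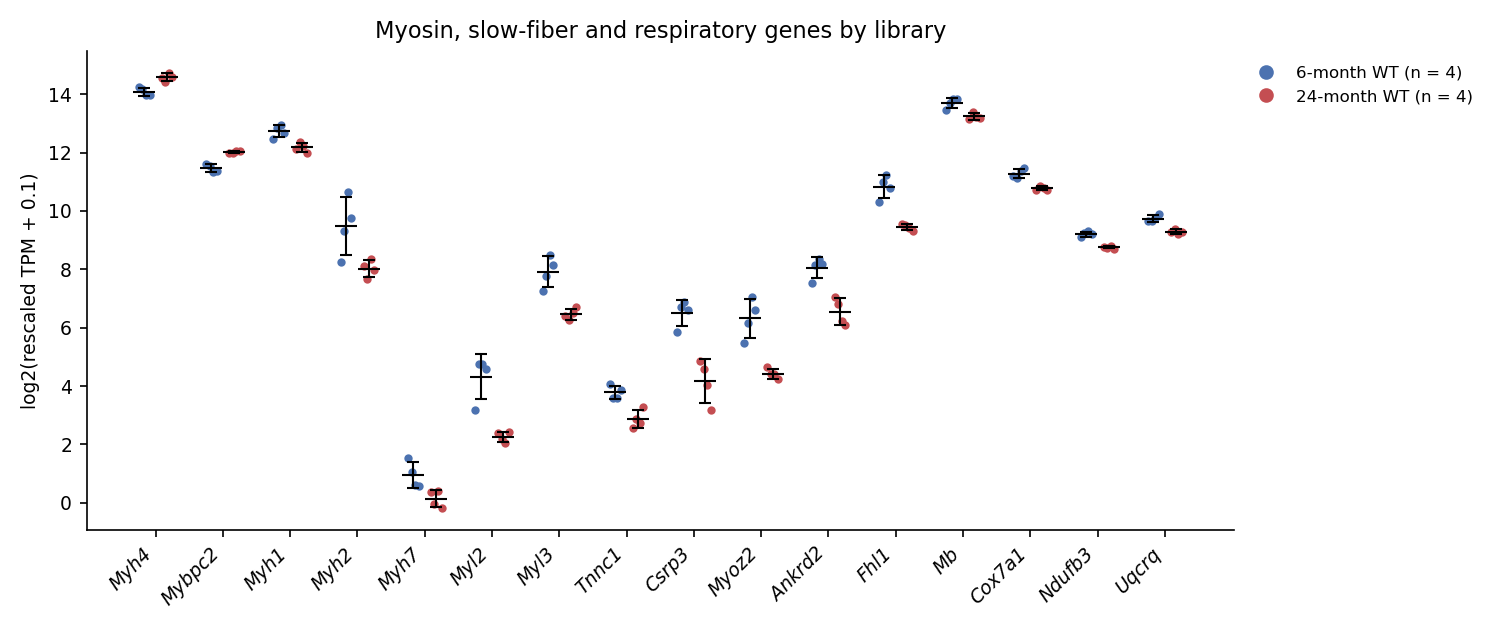
Log2(rescaled TPM + 0.1) of 16 fiber-type and respiratory genes in each WT library, 6 months in blue and 24 months in red, with the mean and SD of 4 libraries as black bars. Myh4 and Mybpc2 lie higher at 24 months and the means of the other genes lower, with a wide 6-month spread in Myh2, Myl2 and Myoz2.

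The nuclear genes of the respiratory chain were lower at 24 months on rescaled TPM. Of 78 subunits tested, 54 were called lower and 0 higher, with a median log2 fold change of -0.29, and 65 had libraries that did not overlap, beside the 3.76% and 20.6% of all genes given above. Cox7a1, the muscle form of a complex IV subunit, was at 2340, 2222, 2625 and 2812 at 6 months and 1692, 1865, 1780 and 1678 at 24 months (log2 fold change -0.51, SE 0.08, limma adjusted p = 0.00147). Ndufb3 of complex I fell from 548, 601, 629 and 589 to 438, 425, 442 and 419 (log2 fold change -0.46, SE 0.06, limma adjusted p = 3.29e-04), and Uqcrq of complex III and Atp5e of the ATP synthase fell by 0.45 and 0.44 (adjusted p = 0.00264 and 0.00446). The changes were small, and the number of calls rested on the scale: on TPM as deposited 5 were called lower and 1 higher (median -0.09, below the 0.26 of all genes), beside 1.07% and 24.0% of all genes. Relative to the median of all genes, the list median was similar on both scales, at -0.37 on rescaled and -0.36 on deposited TPM. Fewer were called lower on rescaled TPM after median-of-ratios scaling (26, median -0.37), with the Y-linked covariate (12, median -0.25) and with 6-month replicates 1 and 4 alone (36, median -0.33). Without 6-month replicate 4 the count was 34, and leaving out each of the other libraries gave 37 to 56. Subunit transcripts were short (median 1046 bases against 3299 for all tested genes), and across genes the age change in WT was correlated with transcript length at a Spearman rho of 0.23. The 80 cytosolic ribosomal protein genes, of similar length (median 1076.5 bases), had a median of -0.03, with 2 called higher and 0 lower, beside 5.70% and 3.76% of all genes. The higher count was 1 with the Y-linked covariate, 1 with 6-month replicates 1 and 4 alone and 1 without any single library other than 6-month replicate 2. On TPM as deposited 12 of the 80 were called higher (median 0.16), beside 24.0% of all genes, and 3 to 24 without 1 library. The part of transcript length in these results was not tested.

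In the TCA cycle and fatty acid oxidation, 4 of 36 genes were called lower on rescaled TPM (Hadh, Etfb, Idh3b and Acadvl, lower by 0.29, 0.28, 0.25 and 0.20 on the log2 scale), beside 3.76% of all genes, and 0 on TPM as deposited, beside 1.07%. With only the WT groups fitted 7 were called lower, beside 4.57%. Etfb was not called without any 1 library other than 6-month replicate 2, and Acadvl without any 1 of the 8, and the count was 2 without 24-month replicate 1, 2 or 4 or 6-month replicate 1, 3 or 4. Of the list, 2 were called lower with the Y-linked covariate and 2 with 6-month replicates 1 and 4 alone. Of the 13 proteins encoded in the mitochondrial genome, which exist only on the deposited scale, mt-Co1, mt-Co3 and mt-Cytb were called lower, 3 of 13 beside 1.07% of all genes. The count was 8 without 6-month replicate 2, 2 without 24-month or 6-month replicate 4 and 3 without any other library. It was 2 with the Y-linked covariate, 5 with 6-month replicates 1 and 4 alone and 5 after median-of-ratios scaling. The log2 fold change of mt-Co1 was -0.27 (SE 0.06, adjusted p = 0.00886), that of mt-Co3 -0.23 (adjusted p = 0.0128) and that of mt-Cytb -0.22 (adjusted p = 0.00822). Without 24-month replicate 4 or 6-month replicate 4, mt-Co3 was not called. mt-Nd6, which is read from the other strand, had a log2 fold change of 0.29 (adjusted p = 0.16).

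Genes of protein breakdown are set beside the 5.70% called higher and 3.76% called lower over all genes on rescaled TPM. Of 36 proteasome subunits, 6 were called higher and 0 lower on rescaled TPM (median 0.17), and 25 were higher on TPM as deposited (median 0.36), where 24.0% of all genes were. After median-of-ratios scaling 1 was called on the rescaled and 1 on the deposited values, with the Y-linked covariate 2 and with 6-month replicates 1 and 4 alone 1. The rescaled count was 1 without 24-month replicate 4, 2 without 24-month replicate 2, 6-month replicate 3 or 6-month replicate 4, 3 without 24-month replicate 1 and 4 without 6-month replicate 1. Psmd11, a subunit of the 19S lid, was at 43.8, 50.1, 42.1 and 39.4 at 6 months and 62.4, 58.7, 59.6 and 75.004 at 24 months (log2 fold change 0.54, SE 0.11, limma adjusted p = 0.00628). Of 45 autophagy and lysosome genes, 5 were called higher and 1 lower. The autophagosome proteins Map1lc3a and Gabarapl1 rose by 0.63 and 0.55 (adjusted p = 0.00132 and 0.00185), the cargo receptor Sqstm1 by 0.53 (adjusted p = 0.00232) and the lysosomal protease Ctsl by 0.39 (adjusted p = 0.00423). These 4 calls also passed with the Y-linked covariate, and 4 of the list were called higher with 6-month replicates 1 and 4 alone. The list had 9 higher with only the WT groups fitted, beside 8.32% of all genes, and 21 on TPM as deposited, beside 24.0%. Among the atrophy ubiquitin ligases, 2 of 25 were called higher, with 0 in the covariate fit, 1 with replicates 1 and 4 alone, 1 without 24-month replicate 1, 2 or 4 or 6-month replicate 3 or 4, and 9 on TPM as deposited. Fbxo30 (MUSA1) rose from 8.75, 9.18, 7.63 and 7.35 to 13.3, 13.97, 12.7 and 14.3 (log2 fold change 0.72, SE 0.14, limma adjusted p = 0.00337), with an adjusted p of 0.08 in the covariate fit. Trim63 (MuRF1) overlapped between ages (436, 378, 198 and 235 at 6 months and 501, 816, 403 and 475 at 24 months, adjusted p = 0.0491), and its call was lost without 6-month replicate 3 or 4 or without 24-month replicate 1, 2 or 4. Fbxo32 (atrogin-1) had a log2 fold change of 0.69 (adjusted p = 0.0739). Ubr4 was at 24.95, 33.03, 30.8 and 22.6 at 6 months and 34.1, 35.02, 36.8 and 40.3 at 24 months. The ages did not overlap in Ubr4, but it was not called (log2 fold change 0.41, limma adjusted p = 0.371). The fit pools the spread of all groups, including UBR4 mKO, in which Ubr4 is the deleted gene. No alternative run on rescaled TPM called Ubr4 (lowest adjusted p = 0.0509). The paper reports higher UBR4 mRNA in old than in young tibialis anterior muscle.

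Of 26 p53 target and senescence genes, 8 were called higher and 0 lower (median 0.22), beside 5.70% and 3.76% of all genes. Eda2r, a receptor of the TNF receptor family, rose 4.18-fold from 6.33, 6.47, 5.305 and 4.74 to 25.5, 19.8, 20.3 and 29.7 (log2 fold change 2.03, SE 0.25, limma adjusted p = 1.14e-04). The cell cycle inhibitor Cdkn1a was at 48.8, 35.6, 26.4 and 21.2 at 6 months and 84.5, 69.1, 64.2 and 80.5 at 24 months (log2 fold change 1.23, SE 0.29, limma adjusted p = 0.0133), and its call was lost without 6-month replicate 4. The BH3-only gene Bbc3 rose 2.17-fold (log2 fold change 1.05, SE 0.17, limma adjusted p = 0.0014). Plk2, Cdkn2c, Mdm2 and Trp53 rose by 0.76, 0.44, 0.33 and 0.31 (adjusted p = 0.00436, 0.0281, 0.0252 and 0.0398). With the Y-linked covariate 3 of the list were called (median 0.11), and with 6-month replicates 1 and 4 alone 4 (median 0.29). Without 6-month replicate 3 or 4, or 24-month replicate 1 or 4, 5 were called. Cdkn2a, a marker of senescent cells, was under the filter, at 0.0797, 0, 0 and 0 at 6 months and 0.3102, 0.796, 0.167 and 0.397 at 24 months. The chaperone Hspb8, which passes damaged proteins to autophagy, rose from 432, 387, 383 and 377 to 711, 692, 640 and 883 (log2 fold change 0.88, SE 0.10, limma adjusted p = 1.10e-04), and Myc rose 2.71-fold (log2 fold change 1.41, SE 0.14, limma adjusted p = 2.22e-05).

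How many immune genes passed the test depended on the fit and the scale. Of 22 leukocyte markers tested, 22 had a log2 fold change above 0 (median 1.02, and 0.61 with the Y-linked covariate), beside 64.1% of all genes. Of 31 markers measured, only these 22 passed the TPM filter. It averages all 16 libraries and favours markers that are high in some group, so the 22 of 22 is not comparable with that share. The test called 3 higher, beside 5.70% of all genes: Cd68, a lysosomal protein of macrophages, S100a8 of neutrophils and monocytes, and the inhibitory receptor Lilrb4a, whose transcript is near-identical to Lilr4b. With only the WT groups fitted, 12 of the 22 were called higher, beside 8.32% of all genes in that fit, and on TPM as deposited 12 of 19 were, beside 24.0%. The summed level of the list was 128 to 230 at 6 months and 201 to 437 at 24 months, which overlapped. In whole muscle, more cells of a type and more RNA per cell cannot be told apart. The count fell to 1 without 24-month replicate 1, 2 or 4 or without 6-month replicate 4. None of the 3 calls passed with the Y-linked covariate (0 of the list) or with 6-month replicates 1 and 4 alone (0), and Cd68 was at 1.49, 0.867, 1.39 and 1.496 at 6 months and 5.57, 5.94, 2.72 and 7.87 at 24 months (adjusted p = 0.015, and not called without 24-month replicate 4). The pan-leukocyte gene Ptprc was at 0.244, 0.326, 0.304 and 0.242 at 6 months and 1.07, 0.796, 0.603 and 0.855 at 24 months (adjusted p = 0.0918).

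Of 13 immunoglobulin genes listed 4 were tested and 2 were called higher, beside 5.70% of all genes, and 1 with the Y-linked covariate or with 6-month replicates 1 and 4 alone. Ighm was at 117, 85.7, 48.7 and 54.9 at 6 months and 291, 174, 359 and 241 at 24 months (log2 fold change 1.84, SE 0.41, limma adjusted p = 0.00997, and not called with the Y-linked covariate) and Ighg2c at 1.69, 1.34, 1.401 and 1.57 at 6 months and 7.75, 11.3, 11.5 and 12.5 at 24 months (log2 fold change 2.74, SE 0.26, limma adjusted p = 1.81e-05). Igkc, the kappa light chain, was highest in 6-month replicate 2 (6.496, 55.7, 0.205 and 2.604 at 6 months and 16.4, 10.2, 16.7 and 15.1 at 24 months, adjusted p = 0.383). Among 18 complement and acute phase genes, 5 were called higher (Orm1, C4b, Cfb, C2 and the complement inhibitor Cd55), and 3 without any 1 of 24-month replicates 1, 2 and 4 or 6-month replicates 1, 3 and 4. The count was 2 with the Y-linked covariate and 2 with 6-month replicates 1 and 4 alone. C4b shares near-identical sequence with C4a, and Orm1 with Orm2. Of 33 interferon-stimulated genes, 4 were called higher, namely Cxcl10, Oas2, Igtp and Irf9, and Gbp2b was called lower, at 2.68, 2.03, 5.03 and 3.26 at 6 months and 0.129, 0, 0.0693 and 0 at 24 months (adjusted p = 0.0011). In the class I antigen presentation list 4 of 17 were called higher. H2-Q6 and H2-Q7 rose 2.54- and 2.599-fold (adjusted p = 0.00439 and 0.00578), and H2-K1 and H2-D1 passed with an adjusted p of 0.0447 and 0.0492 but were lost when any 1 of 7 libraries was left out, 24-month replicate 3 being the exception. With the Y-linked covariate 0 of this list and 1 of the interferon list were called higher, and with 6-month replicates 1 and 4 alone 3 and 3. The fit of the WT groups alone called 9 complement, 10 interferon and 5 class I genes higher (8.32% of all genes), and on TPM as deposited 8 of 15, 14 of 30 and 6 of 16 were (24.0%).

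A few genes of the collagen matrix, in contrast, were lower. 3 of 19 collagen genes were called lower and 0 higher (median -0.27), beside 3.76% of all genes called lower. The count was 0 with the Y-linked covariate (median -0.35), 0 with 6-month replicates 1 and 4 alone (median -0.10) and 5 after median-of-ratios scaling (median -0.35). Col1a1, a chain of type I collagen, was at 21.3, 36.8, 148 and 63.01 at 6 months and 9.93, 10.9, 11.5 and 16.5 at 24 months, with replicate 3 far above the others at 6 months (log2 fold change -2.11, SE 0.50, limma adjusted p = 0.0139). Col1a2 was at 21.3, 34.02, 97.2 and 50.4 at 6 months and 10.2, 14.4, 12.1 and 16.1 at 24 months (adjusted p = 0.0157), and its call was lost without 6-month replicates 3 or 4 or 24-month replicate 1. Of 41 listed matrix genes other than collagens, 3 were called higher and 2 lower (median -0.05), beside 5.70% and 3.76% of all genes, and with the Y-linked covariate or replicates 1 and 4 alone 1 and 1. The lower count was 5 without 24-month replicate 2, 4 without 6-month replicate 1, 1 without 6-month replicate 4, and 4 after median-of-ratios scaling or with only the WT groups fitted. Postn, a matrix protein of growing and healing tissue, fell from 3.402, 10.7, 9.49 and 7.54 to 1.82, 1.56, 1.67 and 2.53 (log2 fold change -1.89, SE 0.30, limma adjusted p = 0.0011). Sparc, a collagen chaperone, fell by 1.02 (adjusted p = 0.0151, not called without 6-month replicate 4). Outside that list, the collagenase gene Mmp13 fell from 2.76, 4.78, 6.13 and 8.47 to 0.612, 0.105, 0.402 and 1.35 (log2 fold change -3.19, SE 0.46, limma adjusted p = 5.26e-04), whereas within it Mmp3 rose 3.65-fold (log2 fold change 1.65, SE 0.30, limma adjusted p = 0.00264) and the secreted protease gene Htra1 1.84-fold (adjusted p = 0.00593). Cilp2 and Adamts8, matrix genes outside the list, had log2 fold changes of -2.22 and -2.03 (adjusted p = 0.00439 and 0.0014), and Cilp2 was not called with the Y-linked covariate (adjusted p = 0.0701).

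Among the other cell types, 3 of 19 endothelial genes were called lower and 0 higher (median -0.25; 2 lower with the Y-linked covariate, 3 with replicates 1 and 4 alone and 8 after median-of-ratios scaling), beside 3.76% of all genes called lower. On TPM as deposited 1 of 18 was lower (median -0.06), beside 1.07%, and with only the WT groups fitted 5 of 19 were, beside 4.57%. The 3 genes were Apln, Fabp4 and Emcn, of which Apln fell from 2.55, 2.48, 3.85 and 2.89 to 1.24, 0.741, 1.304 and 1.63 (log2 fold change -1.22, SE 0.24, limma adjusted p = 0.00461). In adipocytes 2 of 15 genes, in Schwann cells 1 of 12 and in blood 0 of 6 were called lower, beside the 3.76%. The adipocyte count was 1 with the Y-linked covariate and 1 with 6-month replicates 1 and 4 alone, and the Schwann cell count 1 with the Y-linked covariate and 1 with 6-month replicates 1 and 4 alone. Ncmap, a protein of peripheral myelin, fell from 2.26, 2.89, 2.99 and 2.58 to 1.27, 1.299, 1.01 and 1.202 (log2 fold change -1.10, SE 0.15, limma adjusted p = 2.99e-04). The markers of fibroblasts had 2 genes higher and 1 lower, with a median of 0.07, and 0 and 0 with the Y-linked covariate, beside 5.70% and 3.76% of all genes. The higher count was 1 without 24-month replicate 2 or 4 or 6-month replicate 1 or 2, and the lower count 0 without 24-month replicate 3 or 4 or 6-month replicate 3 or 4. Hist1h2al, annotated as a processed pseudogene, fell from 26.2, 19.9, 21.97 and 22.3 to 2.89, 0.247, 0.259 and 0 (log2 fold change -5.68, SE 0.68, limma adjusted p = 1.10e-04). Its transcript is near-identical to those of the H2A histone genes Hist2h2aa1, Hist2h2aa2 and others, so the assignment of its reads is uncertain. Btla, an inhibitory receptor of lymphocytes, and Cyfip2, a regulator of actin branching, fell by 2.61 and 1.97 on the log2 scale (adjusted p = 1.48e-04 and 0.00719), and Cyfip2 was not called with the Y-linked covariate (adjusted p = 0.16) or with 6-month replicates 1 and 4 alone (adjusted p = 0.108).

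Several calls did not pass in the fits that took the sex-linked RNA into account, which also have fewer libraries or 1 more coefficient. A lost call did not always go with a smaller fold change. With the Y-linked covariate the log2 fold change of Col1a1 was -2.07 against -2.11, and that of Myl2 -0.96 against -2.06. On rescaled TPM, the calls of Col1a1, Myl2, Cyfip2, Ckm, Mb, Myh1, Tcap, Myh2, Trim63, H2-K1, H2-D1, C4b, Cfb, C2, Cd68, S100a8, Lilrb4a, Ighm, Col1a2, Sparc, Etfb, Acadvl, Cdkn1a, Wif1, Myl3, Irf9, Trp53, Cdkn2c and Mdm2 passed neither with the Y-linked covariate nor with 6-month replicates 1 and 4 alone. Those of Cilp2, Myh4, Musk, Chrna1, Tmem8c, Fbxo30, H2-Q7, H2-Q6, Oas2, Igtp, Mmp3, Emcn, Uqcrq, Atp5e and Plk2 passed with 6-month replicates 1 and 4 alone but not with the covariate. Those of Sln, Htra1 and Fhl2 passed with the covariate but not with 6-month replicates 1 and 4 alone. Among genes for which it is not given above, a call was lost without 1 or more single libraries for Tcap, Cfb, C2, S100a8, Lilrb4a, Emcn, Irf9, Trp53, Cdkn2c and Mdm2.

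Single libraries moved the deposited counts of several lists by 1.5 times or more. Leukocyte markers called higher went from 12 to between 3 and 5 without 24-month replicate 1, 2 or 4 or 6-month replicate 1, 3 or 4. Interferon-stimulated genes went from 14 to between 5 and 8 without 24-month replicate 1, 2 or 4 or 6-month replicate 1 or 4. Complement genes went from 8 to 4 without 24-month replicate 2 or 4 or 6-month replicate 3 or 4. Class I genes reached 9 without 24-month replicate 3 and fell to 4 without replicate 1 or 4 of either age. The lists of protein breakdown moved as well. Proteasome subunits went from 25 to between 10 and 15 without 24-month replicate 4 or 6-month replicate 3 or 4. Autophagy genes went from 21 to between 9 and 13 without 24-month replicate 4 or 6-month replicate 3 or 4. Ligases went from 9 to between 1 and 5 without 24-month replicate 1 or 4 or 6-month replicate 3 or 4 and to 18 without 6-month replicate 2. Among the muscle lists, denervation genes ran from 14 to 20, around the 19 of all libraries. Fast-fiber genes went from 12 to between 5 and 7 without 24-month replicate 1 or 4 or 6-month replicate 3 or 4. Respiratory chain subunits called lower went from 5 to between 1 and 2 without 24-month replicate 1, 2, 3 or 4 or 6-month replicate 1, 3 or 4.

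**Figure D4:**
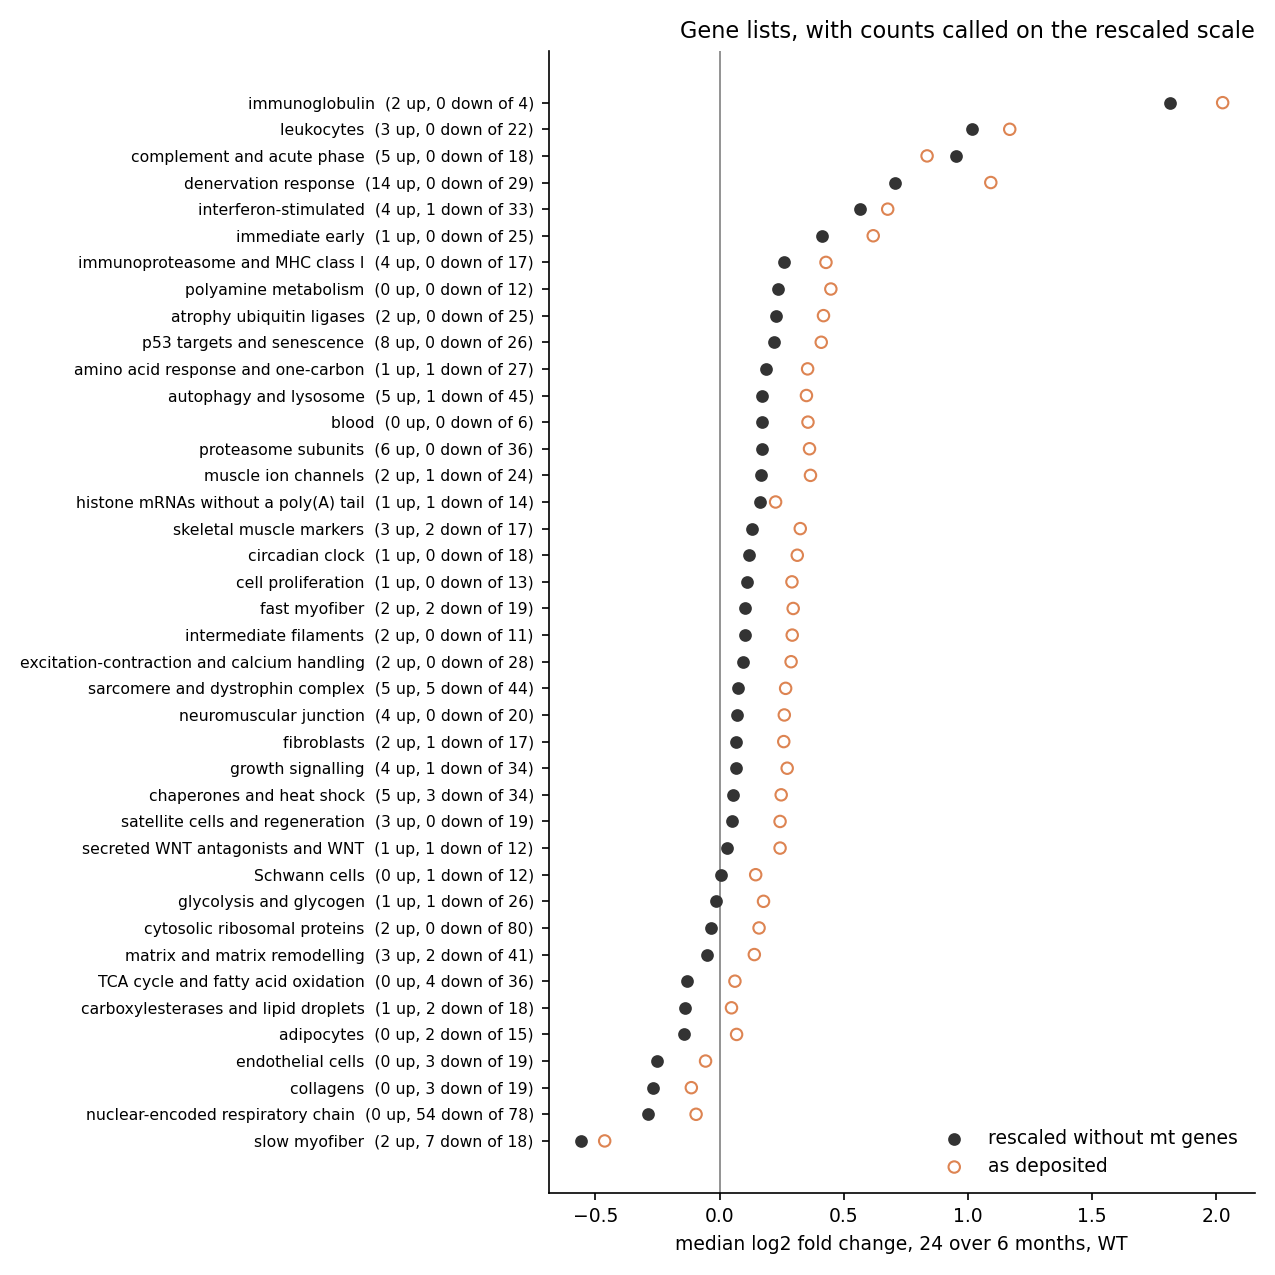
Median log2 fold change of the tested genes of each list, 24 over 6 months in WT, for rescaled TPM (filled) and TPM as deposited (open), with the counts called higher and lower on the rescaled scale beside each list name. The denervation response lies at 0.71 with 14 higher, the nuclear respiratory chain at -0.29 with 54 lower, and slow-fiber genes at -0.56 with 7 lower.

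The change with age was also set against that of the UBR4 mKO muscles, which used other libraries. The 6-month UBR4 mKO libraries had Xist at 1.42 to 44.1 and Y-linked levels of 0.595 to 125% of the 24-month WT mean, with replicate 4 the lowest. Across the 11901 genes, which share annotation and length, the log2 fold changes of the 2 genotypes correlated at a Pearson r of 0.435 and a Spearman rho of 0.296, as a description across genes. Of the 1125 genes called in WT, 864 had the same sign in UBR4 mKO, beside 56.2% of all tested genes. The interaction, which tests the difference between genotypes, was called for 231 of 11901 genes (1.94%), with a higher age effect in WT for 150 and a lower one for 81. The count was 177 with the Y-linked covariate, and 99, 135 and 119 without 24-month replicates 1, 3 and 4 and 108 and 95 without 6-month replicates 1 and 4.

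The denervation genes were among those whose change differed. Of the list, 12 genes passed the interaction, beside 1.94% of all genes, and 2 genes were called higher and 5 lower with age in UBR4 mKO (median 0.05), beside 4.42% and 4.87% of all genes. Rrad had a log2 fold change of 4.33 in WT and 0.15 in UBR4 mKO (interaction adjusted p = 0.00151). Runx1 had 2.46 and 0.18 (interaction adjusted p = 0.00151), and Sln 1.56 and -1.73 (interaction adjusted p = 0.00151). Myog (1.76 and -0.71) and Ankrd1 (1.98 and -0.46) had opposite signs in the 2 genotypes (interaction adjusted p = 0.00622 and 0.00151). Krt18 and Esr1 rose by 6.29 and 3.96 in WT against log2 fold changes of 1.28 and 0.20 in UBR4 mKO (interaction adjusted p = 0.00151 and 0.00418). In contrast, Tmem132b had 3.77 and 3.99, H19 -1.86 and -2.53, and Csrp3 -2.34 and -2.74 (interaction adjusted p = 0.854, 0.228 and 0.711), for which a difference was not detected. Levels in UBR4 mKO are not given here, so these fold changes do not show at which age the genotypes differed. The paper reports that the proteins ESR1, AIF1L and CES2C rose with aging and also, in young muscle, with UBR4 loss.

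**Figure D5:**
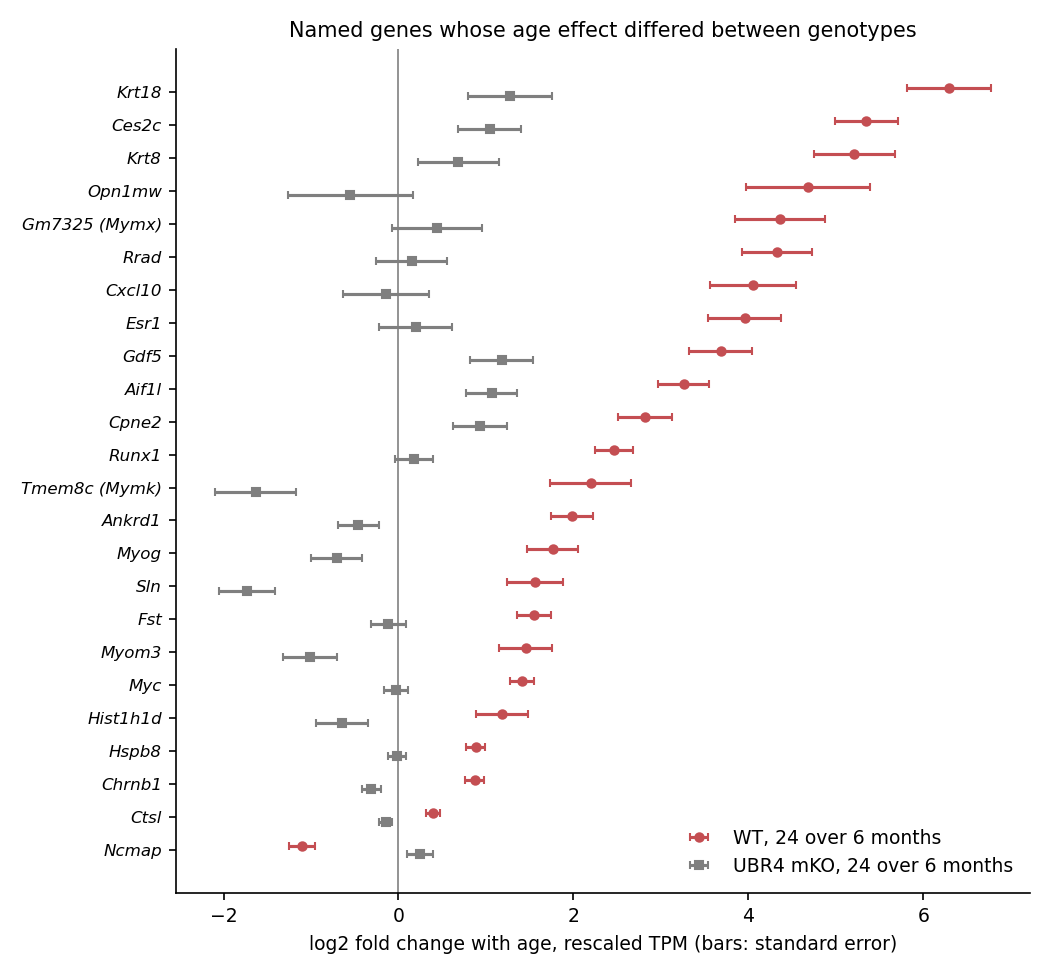
Log2 fold change with age on rescaled TPM, with its standard error, in WT (red circles) and UBR4 mKO (grey squares), for the 24 named genes whose interaction passed. In 23 of the genes the WT value is above the UBR4 mKO value, and in Ncmap it is below. Most named genes were chosen by their change in these WT libraries, so this split is not a comparison of the genotypes. Over all genes the age effect was higher in WT for 150 and lower for 81.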

How the data were processed

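The deposited table holds TPM per gene symbol for each library, made by the authors with CLC Genomics Workbench from paired-end reads aligned to mm10 after quality trimming. The annotation release, the treatment of reads with several matches and the use of strand are not given in the sources used here. The study's methods and the labels name different library kits and sequencers. Each column sums to the same total, so depth and counting error are unknown.

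Libraries were grouped by their labels, 4 per group. TPM was used as deposited and, to remove the mitochondrial share, rescaled after dropping symbols starting with mt-. Genes averaging at least 1 TPM over the 16 libraries were tested on log2(TPM + 0.1) with limma 3.58.1 in R 4.3.3 (4 group coefficients, variance trend, Benjamini-Hochberg adjusted p under 0.05), in place of the Dunn's test on log TPM that the methods describe, which was run as an alternative. The WT age effect was set against that of UBR4 mKO by an interaction term. The mitochondrial share, Xist and the Y-linked level were tested by exact two-sided permutation. The limma steps were tested on simulated data with known changes.

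The members and the 42 gene lists were chosen with earlier results of these data known. Named genes were, among symbols that are gene names, the 12 largest rises and falls called on both scales without overlap between ages, the 6 largest gains and losses of TPM, up to 4 genes per list, and Ubr4, Xist, the Y-linked and the mitochondrial genes. Genes under the TPM filter, Ampd3, Krt19, Ptprc, Igkc and the other list members named beside these were chosen after their values were seen. Near-identical transcripts (at least 90% identity over 50% of the length) were searched with minimap2 2.31-r1302. Promoters were taken from RefSeq, GRCm38.p6. A few genes are not reported here. Alternatives changed the pseudocount, filter, scaling, variance model, libraries and covariates.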

Additional observations from a re-analysis of the deposited data

Results flagged for a closer look

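A single library stood apart from the other 3 of its age, by Dixon's criterion, in 16 of 282 sets of 4 values of named genes, and chance alone gives about 14.1. Among the denervation and keratin genes, 6-month replicate 1 had the lowest Chrna1, at 6.79 against 10.1 to 10.9. Krt8 was at 0.0548 in 6-month replicate 4 and Gm7325 (Mymx) at 0.213 in 6-month replicate 3, with the other young libraries listed at 0. Opn1mw was at 0.317 in 6-month replicate 4, against 0.0598 to 0.06996 in the other 3. Cpne2 was at 6.697 in 6-month replicate 3, against 4.52 to 4.702 in the other 3. Dkk3 was at 8.61 in 6-month replicate 4, against 5.11 to 5.31 in the other 3. These genes were called higher at 24 months. Myl2 was at 8.96 in 6-month replicate 1, against 23.7 to 27.1 in the other 3. Dgat2 was at 24.6 in 24-month replicate 2, against 15.2 to 16.4 in the other 3. Both were called lower at 24 months. Cd68 was at 0.867 in 6-month replicate 2, against 1.39 to 1.496 in the other 3. Lilrb4a was at 0.293 in 6-month replicate 3, against 1.06 to 1.13 in the other 3. The low values of these immune genes lay in different libraries. Hadh was at 124 in 6-month replicate 2, against 134 to 135 in the other 3. Psmc6 was at 268 in 24-month replicate 4, against 235 to 240 in the other 3. Hsph1 was at 34.6 in 24-month replicate 2, against 29.4 to 29.9 in the other 3. Hsph1 is a chaperone and Psmc6 a proteasome ATPase. Id2 was at 14.96 in 24-month replicate 1, against 9.99 to 10.6 in the other 3. Uty was at 5.09 in 24-month replicate 4, against 5.57 to 5.66 in the other 3. On TPM as deposited, mt-Atp8 was at 41672 in 6-month replicate 1, against 44303 to 44734 in the other 3.

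The change with age differed between WT and UBR4 mKO, by the limma interaction, in 24 of 128 named genes tested, beside 231 of 11901 genes (1.94%). Most of the 128 were chosen by their change with age in these WT libraries, which favours a larger change in WT. Values are the log2 fold change in WT minus that in UBR4 mKO, and they do not show at which age the genotypes differed. The keratins and other largest rises were higher in WT: Krt18 (5.02, adjusted p = 0.00151), Krt8 (4.52, adjusted p = 0.00261), Ces2c (4.31, adjusted p = 8.62e-04), Opn1mw (5.23, adjusted p = 0.0158), Cxcl10 (4.204, adjusted p = 0.00574), Esr1 (3.76, adjusted p = 0.00418), Aif1l (2.196, adjusted p = 0.014) and Cpne2 (1.89, adjusted p = 0.0387). So were genes of the denervation response: Rrad (4.18, adjusted p = 0.00151), Gdf5 (2.504, adjusted p = 0.0215), Gm7325 (3.92, adjusted p = 0.0131), Runx1 (2.28, adjusted p = 0.00151), Tmem8c (3.83, adjusted p = 0.00708), Myog (2.47, adjusted p = 0.00622), Ankrd1 (2.44, adjusted p = 0.00151), Sln (3.29, adjusted p = 0.00151) and Fst (1.66, adjusted p = 0.00613). The receptor subunit Chrnb1 (1.18, adjusted p = 0.00151) and the M-band gene Myom3 (2.46, adjusted p = 0.00877) were also higher in WT. Among the others were the chaperone Hspb8 (0.901, adjusted p = 0.00561), the protease Ctsl (0.54, adjusted p = 0.02), Myc (1.44, adjusted p = 0.00151) and the linker histone Hist1h1d (1.82, adjusted p = 0.0381). The myelin gene Ncmap (-1.35, adjusted p = 0.00386) alone among the 24 had the lower value in WT. The 6-month libraries of both genotypes held Xist, and 177 genes were called for the interaction in the fit with the Y-linked covariate.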

How the results depend on the processing

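Of the 119 named genes called on rescaled TPM, 58 passed under every alternative run except Dunn's test, and all 2460 values of the 119 kept the direction. The call held for 105 after median-of-ratios scaling, 74 with 6-month replicates 1 and 4 alone and 60 with the Y-linked covariate. On rescaled TPM, 1125 genes were called, against 538 with 6-month replicates 1 and 4 alone, 295 with the Y-linked covariate, 2820 with array weights and 0 by Dunn's test (2249 at an unadjusted p under 0.05), and 636 to 1105 without 1 library. On TPM as deposited, 2669 were called, against 3976 with replicates 1 and 4 alone, 1138 with the covariate, 1035 after median-of-ratios scaling, 6531 with array weights, 1805 at a mean TPM of at least 5, 0 by Dunn's test (2840 unadjusted), and 974 to 4973 without 1 library. The interaction called 231, against 152 with replicates 1 and 4 alone, 824 with array weights and 95 to 248 without 1 library. Replicate numbers did not pair the samples, since same-numbered libraries deviated together by a correlation of only -0.010 to 0.105. With the replicate block, 1008, 2023 and 157 genes were called on the rescaled scale, the deposited scale and for the interaction. The mitochondrial share of TPM differed by -6.19 percentage points, with an exact p of 0.125 under the replicate block, the smallest that 4 pairs allow, and by -7.43 to -5.05 without 1 library (exact p = 0.0571 without any 1 of the 24-month libraries).

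Direction turned in the values that follow, and the cause was not tested. Ddx3y, Uty, Kdm5d and Eif2s3y themselves make up the Y-linked level, so their values in the covariate fit do not measure dependence on processing. On TPM as deposited, the Y-linked covariate gave 0.049 for Tcap, 0.043 for Etfb, 0.00042 for Idh3b, 0.055 for Acadvl, 0.015 for Hspa1l, -1.24 for Ddx3y, -0.44 for Uty, -0.074 for Kdm5d and -1.25 for Eif2s3y, and on rescaled TPM -1.63, -0.90, -0.41 and -1.62 for the same Y-linked genes. Median-of-ratios scaling gave -0.00228 for Tnnt3 and -0.071 for Acta1 on the deposited and -0.0026 and -0.071 on the rescaled values. Acadvl, as deposited, was at 0.089 with replicates 1 and 4 alone (Abhd5 0.020), at 0.0065 with array weights, and at 0.0015 and 0.060 without 24-month and 6-month replicate 2. Without 1 library, mt-Atp8 as deposited ranged from -0.0987 to 0.00774 (above 0 without 24-month replicate 1), and Acta1 on rescaled TPM from -0.0185 to 0.0464 (below 0 without 24-month replicate 3, 6-month replicate 1 or 6-month replicate 2).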

Other observations

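Among the cytosolic ribosomal protein genes, Rpl3 rose from 41.7, 46.6, 53.5 and 46.1 to 74.7, 69.2, 62.4 and 87.1 (log2 fold change 0.64, SE 0.13, limma adjusted p = 0.0068), while its striated muscle form Rpl3l was at 871, 863, 909 and 873 at 6 months and 828, 804, 860 and 727 at 24 months (adjusted p = 0.158). Of 34 chaperones, 5 were called higher and 3 lower, beside 5.70% and 3.76% of all genes, and on TPM as deposited 11 (5 to 16 without 1 library) and 0, beside 24.0% and 1.07%. The rescaled lower count was 1 without 24-month replicate 1, 3 or 4 or 6-month replicate 3 or 4, and 0 with the Y-linked covariate or with 6-month replicates 1 and 4 alone. The myosin chaperone Unc45b rose by 0.40 and Hsp90ab1 by 0.37 (adjusted p = 0.00149 and 0.00375). In excitation-contraction coupling, 2 of 28 genes were called higher, beside 5.70% of all genes (2 with the Y-linked covariate and 1 with 6-month replicates 1 and 4 alone). The list median was 0.10, close to the 0.08 of all genes. As deposited 10 were called higher, beside 24.0%, and 3 to 18 without 1 library. The 2 genes were Sln and the calcium channel subunit Cacng1, which rose from 404, 380, 372 and 417 to 704, 751, 655 and 991 (log2 fold change 0.96, SE 0.12, limma adjusted p = 1.10e-04). The sarcomere list had 5 genes higher and 5 lower of 44, beside 5.70% and 3.76% of all genes. As deposited it had 16 and 3, beside 24.0% and 1.07%, with 8 to 24 higher without 1 library. Its lower count on rescaled TPM was 3 without 24-month replicate 1 or 2 or 6-month replicate 3 or 4, 2 with the Y-linked covariate, 3 with 6-month replicates 1 and 4 alone and 8 after median-of-ratios scaling. The M-band protein gene Myom3 rose by 1.45 and the Z-disc gene Actn2 fell by 0.79 (adjusted p = 0.007 and 0.00185; Actn2 0.0618 with the Y-linked covariate).

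Ldhb, the lactate dehydrogenase subunit of oxidative fibers, fell from 296, 355, 473 and 403 to 223, 233, 234 and 191 (log2 fold change -0.78, SE 0.14, limma adjusted p = 0.00252), 1 of 26 glycolysis genes lower beside 1 higher (3.76% and 5.70% of all genes). As deposited it was 1 and 8 (4 to 13 higher without 1 library), beside 1.07% and 24.0%. The Ldhb call did not pass with the Y-linked covariate (adjusted p = 0.0779), a fit in which 0 genes of the list were called, and with 6-month replicates 1 and 4 alone 1 was lower and 0 higher. The higher count was 0 without 24-month replicate 1, 3 or 4 or 6-month replicate 2, 3 or 4. Aurka, a mitotic kinase, was the 1 gene of 13 in the proliferation list that was called on rescaled TPM (5.70% of all genes were higher), also with the Y-linked covariate and with 6-month replicates 1 and 4 alone, and rose from 5.35, 4.34, 4.96 and 5.16 to 11.6, 12.4, 12.4 and 10.2 (log2 fold change 1.21, SE 0.21, limma adjusted p = 0.00188). As deposited 5 of the 13 were called higher (3 to 6 without 1 library), beside 24.0%. With only the WT groups fitted 3 were, beside 8.32%. Fgf21, a hormone released by stressed muscle, was under the TPM filter and not tested. It was listed at 0 in all 4 of the 6-month libraries and at 1.27, 0.702, 2.73 and 1.001 in the 24-month libraries. It was chosen after its values were seen. No polyamine gene of 12 was called on rescaled TPM, beside 5.70% of all genes higher and 3.76% lower. With the replicate block, without 24-month replicate 3 or without 6-month replicate 1, 1 was called higher. As deposited 3 of 11 were called higher, beside 24.0%, and 2 to 6 without 1 library. Odc1, the first enzyme of that pathway, had a log2 fold change of 0.49 (adjusted p = 0.0623).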
